A study of Triticum aestivum with 36 samples.

Results

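C306 and WH291, a good and a poor chapatti making variety of Indian bread wheat, were compared in whole developing grain at 7 days after anthesis (DAA). The comparison used the 3 arrays titled C306 at 7 DAA and the 3 titled WH291 at 7 DAA, 6 of the 36 arrays in the series. All 61290 probe sets of the wheat genome array except the 111 manufacturer controls were members, which left 61179. Each difference at 7 DAA was then set beside the change that C306 itself made from 7 to 14 DAA, to separate differences that follow grain development from those that do not.

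The series also holds the varieties Lok1 (good) and Sonalika (poor), and each of the 4 was sampled at 7, 14 and 28 DAA with 3 biological replications. All plants were field grown at 1 site in 1 season, and spikes were tagged on the first day of anthesis, so the stage is a count of days and not a measured size or moisture of the grain. RNA came from about 10 caryopses of the central part of the harvested spikes, and endosperm, embryo, aleurone and the maternal pericarp were not parted. In such bulk grain, fewer cells of a type and less RNA per cell cannot be told apart. No treatment, transgene or mutant allele was part of the design.

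In a young wheat grain the endosperm, at first a syncytium, forms cells and divides, while the green pericarp still makes up much of the tissue. Cell division then slows, and the starchy endosperm fills with starch made from ADP-glucose and with storage proteins. Gliadins are single-chain prolamins that give dough its flow, glutenins are polymers linked by disulfide bonds that give it strength, and both are made almost only in the starchy endosperm. Late embryo proteins such as Em appear after these, as the embryo and the aleurone prepare for drying.

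Values were log2 signals with the median over the 36 arrays taken off for each probe set, so a value of 0 is that probe set's own middle level, and one probe set's level says nothing against another's. The probes were designed on sequence from other wheats, so a change of sequence under the probes and a change of RNA level cannot be told apart. The replicates did not resemble each other equally. Over all probe sets WH291 replicates 2 and 3 correlated at 0.951, whereas WH291 replicate 1 correlated with them at 0.83 and 0.835. C306 replicates 1 and 2 correlated at 0.951, and C306 replicate 3 with them at 0.92 and 0.9. C306 replicate 3 and WH291 replicate 1 also lay nearest to the opposite variety, with a correlation of 0.799 between them against 0.503 between C306 replicate 2 and WH291 replicate 2. The controls for RNA length (the 3′ minus the 5′ probe sets of actin, elongation factor 1 alpha, GAPDH and ubiquitin) had medians of 0.0737, 0.263 and 0.389 on the C306 arrays and 0.427, 0.526 and 0.787 on the WH291 arrays. They were higher on every WH291 array, and their part in the differences was not tested. Hybridization controls are 18 probe sets for material added to the samples. Their array medians were -0.799, -0.00413 and -0.224 on the C306 arrays and 0.203, 0.235 and -0.108 on the WH291 arrays, which overlapped. Each of these controls had a lower mean in C306, and their part was not tested either.

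Outside these 6 arrays, those labelled WH291 at 14 DAA stood apart from the other WH291 arrays. Over 62 probe sets with a lasting difference of at least 3 log2 units between C306 and WH291, 59.7 to 61.3% lay nearer to C306 on these arrays, beside 54.8% or more on the Lok1 arrays at 14 DAA, against 4.84 to 14.5% on the WH291 arrays at 28 DAA. These probe sets were chosen for a lasting difference. The low share on the WH291 arrays at 28 DAA was therefore largely set by the choice. Sonalika arrays at 7 and 14 DAA had 53.2 to 54.8%, so the share does not single out Lok1. As their identity was not settled, the arrays labelled WH291 at 14 DAA entered no comparison. Without these arrays and those labelled Lok1 at 7 DAA, which share in the estimate of the spread, 13133 probe sets differed in place of 12185.

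C306 and WH291 differed at 7 DAA in 12185 probe sets, which is 19.9% of those tested (limma, Benjamini-Hochberg adjusted p under 0.05). Of these, 6503 (10.6% of all) were higher in C306 and 5682 (9.29%) were lower. The difference was at least 2-fold in 6090 and at least 10-fold in 436, and 327 of the latter were higher in C306. The median difference over all probe sets was -0.04 log2 units. The 3 arrays of one variety lay wholly on one side of the 3 of the other in 10963 of the 12185, against 34.7% of all probe sets tested. Quantile normalization of the deposited values, which gives every array the same spread, left 5582. The standard deviation of the centred values was 0.957, 1.11 and 1.09 on the WH291 arrays and 0.827, 0.821 and 0.872 on the C306 arrays. Equal spread therefore shrinks values on the WH291 arrays by construction, which limits what a call lost under this setting can show.

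The largest rise in C306 was in a probe set with no gene name. It read 1.36, 1.39 and -0.45 on the C306 arrays and -3.09, -10.15 and -10.54 on the WH291 arrays, a difference of 8.69 ± 1.36 (SE, n = 3 and 3, adjusted p = 2.78e-05). The groups did not overlap, but WH291 replicate 1 lay nearer to the C306 arrays than to the other WH291 arrays. Another shape was seen in the hypothetical protein F775_43830. It read 8.86, 8.84 and 7.13 in C306 and -0.44, -0.23 and -0.46 in WH291, with the 3 WH291 arrays close together (8.65 ± 0.42, adjusted p = 6.96e-15). Both shapes recurred among the genes described below, the first mostly in genes of the filling endosperm.

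**Figure D1:**
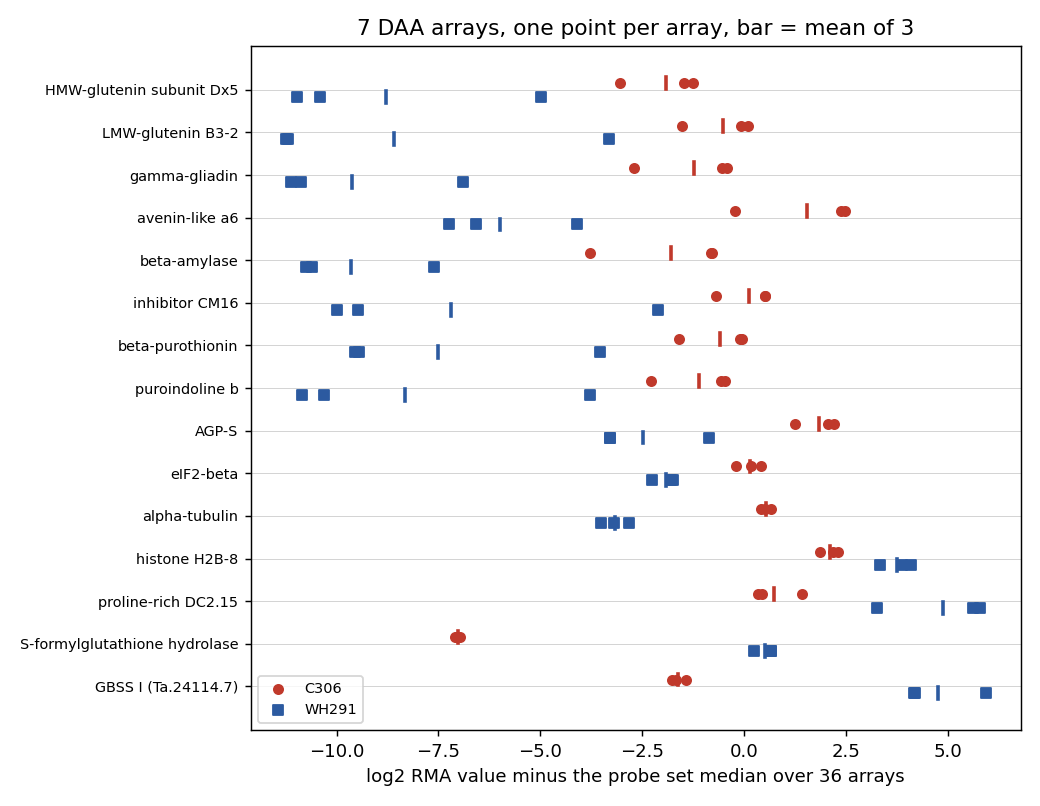
Level of 15 named genes on the 3 C306 arrays (red circles) and the 3 WH291 arrays (blue squares) at 7 DAA, as log2 signal minus the probe set's median over 36 arrays, with bars for the means. The storage protein, inhibitor and purothionin genes have WH291 replicate 1 between the other WH291 arrays and C306, whereas S-formylglutathione hydrolase and eIF2-beta have tight groups.

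Prolamin genes were far higher in C306. Of 56 probe sets for gliadins, glutenins and avenin-like proteins, 54 rose in C306 and none fell, beside 10.6% and 9.29% of all probe sets, and their median difference was 6.40 log2 units against -0.04 over all. This list was chosen by the study on these same arrays, so its direction is not independent evidence. In the list of storage proteins from the array annotation 15 of 17 rose and none fell, with a median of 5.95. Some probe sets are in both lists. The median over the 56 was -0.60, -0.43 and -2.58 on the C306 arrays and -4.89, -9.21 and -9.25 on the WH291 arrays. All 9 low molecular weight (LMW) glutenin probe sets, all 9 alpha-gliadins and all 13 avenin-like proteins rose, with 16 of 17 gamma-gliadins and 5 of 6 high molecular weight (HMW) glutenins. The medians were highest for the LMW glutenins at 7.05 and lowest for the HMW glutenins at 4.62.

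The HMW-glutenin subunit Dx5 gene, whose product forms the backbone of the gluten polymer, read -1.47, -1.25 and -3.04 in C306 and -4.98, -10.40 and -10.97 in WH291 (6.86 ± 1.14, adjusted p = 5.61e-05). WH291 replicates 2 and 3 were far below replicate 1. LMW-glutenin subunit B3-2, which branches that polymer, read -0.08, 0.09 and -1.52 against -3.32, -11.18 and -11.24 (8.08 ± 1.34, adjusted p = 5.6e-05). A gamma-gliadin had the third largest rise of all probe sets, at -0.55, -0.41 and -2.71 against -6.90, -11.12 and -10.86 (8.41 ± 1.27, adjusted p = 1.69e-05). Avenin-like a6, a sulfur-rich relative of the gliadins, read 2.47, 2.39 and -0.22 against -4.10, -7.24 and -6.58 (7.52 ± 1.42, adjusted p = 0.000255). In each of these the lowest C306 array was replicate 3 and the highest WH291 array replicate 1, and the groups did not overlap.

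Globulins rose as well, in 4 of 4 probe sets of the study's list with a median of 4.26 (2 for the 19 kDa globulin, 1 for triticin and 1 for Globulin-1 S allele). Of all probe sets 10.6% were higher and 9.29% lower, and the study chose this list too on the same arrays. The arrays of Globulin-1 S allele overlapped, at -6.11, -5.58 and -8.59 in C306 against -8.29, -10.53 and -9.13 in WH291 (2.56 ± 0.91, adjusted p = 0.0467). Triticin, the 11S globulin of wheat, read -2.23, -2.28 and -4.87 in C306 and -6.97, -7.69 and -7.70 in WH291 (4.33 ± 1.22, adjusted p = 0.0108). Its call was lost without C306 replicate 1 (3.88, adjusted p = 0.0584) or replicate 2 (3.91, adjusted p = 0.0586), and under quantile normalization (1.73, adjusted p = 0.51). The 19 kDa globulin differed by 4.30 ± 1.04 (adjusted p = 0.0032), and did not pass under quantile normalization (1.75, adjusted p = 0.243).

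Small cysteine-rich proteins of the endosperm, which inhibit digestive enzymes of insects or bind lipids, moved with the prolamins. In the study's own lists, 13 of 14 alpha-amylase inhibitor probe sets rose (median 6.78), with 7 of 7 trypsin inhibitors (5.08), 6 of 6 thionins (6.61) and 4 of 5 puroindoline and grain softness probe sets (6.09). None fell, beside 10.6% higher and 9.29% lower of all probe sets. The study chose these lists on the same arrays, so their direction is not independent evidence. In the list of serpins and inhibitors from the array annotation 9 of 15 rose and none fell, with a median of 1.27. Its list median was -0.52, -0.47 and -2.64 on the C306 arrays and -2.43, -6.26 and -6.12 on the WH291 arrays, which overlapped. Inhibitor CM16 read 0.52, 0.52 and -0.68 in C306 and -2.12, -10.00 and -9.46 in WH291 (7.32 ± 1.35, adjusted p = 0.000208), and CM17 differed alike (7.26 ± 1.37). Beta-purothionin, an antimicrobial peptide, read -0.05, -0.09 and -1.59 against -3.54, -9.45 and -9.54 (6.93 ± 1.06, adjusted p = 1.92e-05). Puroindoline b, which with puroindoline a sets grain hardness, read -0.57, -0.47 and -2.28 against -3.79, -10.30 and -10.84 (7.20 ± 1.19, adjusted p = 5.76e-05). A grain softness protein probe set differed by 7.24 ± 1.26. The exception in that group was puroindoline a, at -0.45 (adjusted p = 0.746). As the values are centred, they do not show whether this gene was expressed in either variety. For the amylase inhibitors, leaving out WH291 replicate 1 raised the median difference to 8.78.

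Beta-amylase and serpin probe sets did not all differ. Beta-amylase, which lies stored in the endosperm and breaks starch at germination, was higher in 4 of 4 probe sets of the study's list (median 7.07). Of all probe sets 10.6% were higher, and this list was chosen on the same arrays. The leading one read -0.81, -0.77 and -3.77 against -7.60, -10.59 and -10.76 (7.87 ± 1.26, adjusted p = 3.7e-05). The beta-amylase BMY1, from the array annotation, differed by -1.69 and did not pass (adjusted p = 0.163), and it fell from 7 to 14 DAA, with a change of -3.04 in C306 and -4.22 in Sonalika. Serpin-Z1B, a protease inhibitor, was at -3.74, -3.53 and -5.69 against -7.03, -7.59 and -7.84 (3.17 ± 1.00, adjusted p = 0.0233), and the call failed without C306 replicate 1 (adjusted p = 0.0933), C306 replicate 2 (0.109), WH291 replicate 2 (0.0693) or WH291 replicate 3 (0.0775), and under quantile normalization (0.516) and cyclic loess (0.13). Serpin WSZ2b differed by 0.20 (adjusted p = 0.947), although it rose by 6.34 in C306 and by 9.91 in Sonalika from 7 to 14 DAA.

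As a list, markers of later embryo and aleurone maturation were low in both varieties. Of 12 probe sets for Em, LEA1, Rab15, PER1 and COR410, 1 rose and none fell, 8.33% called beside 19.9% of all probe sets, and the median difference was 0.10. On the C306 arrays the list median was -6.94, -7.18 and -7.90, and on the WH291 arrays -7.26, -7.30 and -6.80, so the groups overlapped. Its median change between 7 and 14 DAA was 4.29 in C306 and 7.66 in Sonalika. The probe set that rose was PER1, a peroxiredoxin of dormant seed (2.60 ± 0.89, adjusted p = 0.0386), and it failed without any 1 of 5 of the 6 arrays (adjusted p from 0.0622 to 0.192), the exception being C306 replicate 3, and under quantile normalization (0.589). Markers outside this list did differ. A putative oleosin, a coat protein of oil bodies, was at -1.04, -0.99 and -2.54 against -2.63, -8.38 and -7.75 (4.73 ± 0.79, adjusted p = 6.4e-05), but did not pass in the fit on the 6 arrays alone (adjusted p = 0.0582). Globulin-1 S allele, counted above with the globulins, was higher by 2.56 ± 0.91 (adjusted p = 0.0467) with overlapping arrays.

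Starch synthesis genes gave mixed values. AGP-S, the small subunit of ADP-glucose pyrophosphorylase, which makes the glucose donor for starch, read 2.06, 2.22 and 1.26 in C306 and -0.85, -3.28 and -3.28 in WH291 (4.32 ± 0.64, adjusted p = 1.18e-05). AGA.1, another subunit of that enzyme, read 1.17, 1.67 and 0.70 against -0.92, -1.88 and -2.11 (2.82 ± 0.42, adjusted p = 1.54e-05), while a further AGA.1 probe set was at -0.17 and did not pass (adjusted p = 0.41). Granule-bound starch synthase I, the amylose enzyme, was reported by 2 probe sets that disagreed. The one annotated as GBSS I (waxy) differed by 1.57 (adjusted p = 0.248). The one so named by the study was lower in C306, at -1.41, -1.77 and -1.67 against 5.93, 4.19 and 4.17 (-6.38 ± 0.68, adjusted p = 9.09e-08).

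**Figure D2:**
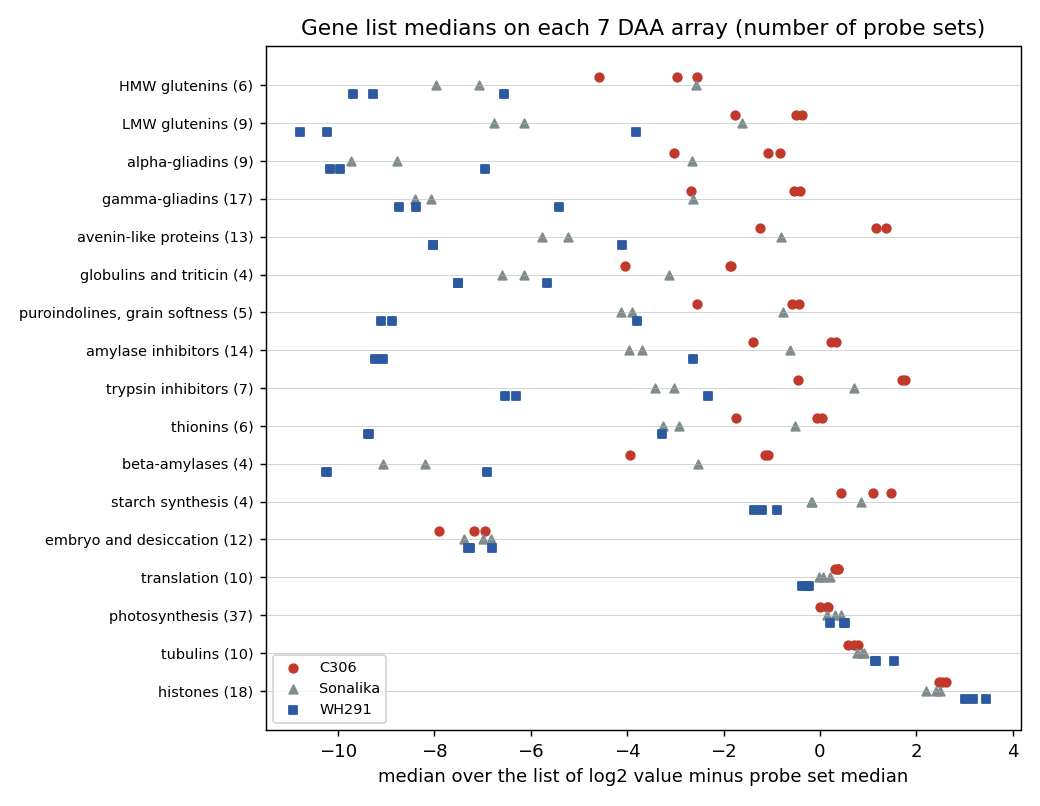
Median level of 17 gene lists on each 7 DAA array of C306 (red circles), Sonalika (grey triangles) and WH291 (blue squares), in log2 units relative to each probe set's median over 36 arrays. Endosperm lists are higher on every C306 array than on any WH291 array, with WH291 replicate 1 above its fellows in the storage protein and inhibitor lists, the embryo and desiccation list lies near -7 on all 9 arrays, and the histone and tubulin medians are highest in WH291 (the histone difference turns to 0.11 under quantile normalization).

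Histone and tubulin lists had medians below 0. Histones of the H2A and H2B kind, made while DNA is copied, fell in C306 in 4 of 18 probe sets and rose in none, 22.2% called beside 19.9% of all probe sets, with a median of -0.60 against -0.04 over all. The list median was 2.54, 2.47 and 2.61 on the C306 arrays and 3.00, 3.45 and 3.17 on the WH291 arrays, which did not overlap. Histone H2B-8 read 2.19, 1.86 and 2.30 against 3.34, 4.10 and 3.87 (-1.65 ± 0.45, adjusted p = 0.00794), and did not pass under quantile normalization (-0.87, adjusted p = 0.392). Histone H2A-2 read 3.03, 3.32 and 3.07 against 4.35, 4.63 and 4.18 (-1.25 ± 0.40, adjusted p = 0.0241), a call that failed without C306 replicate 1 (adjusted p = 0.0784), C306 replicate 3 (0.0606) or WH291 replicate 2 (0.0992), and under quantile normalization (0.543) and cyclic loess (0.0597). Under quantile normalization the histone median turned to 0.11, and under cyclic loess it was -1.74. Tubulins, the subunits of microtubules, fell in 4 and rose in 2 of 10 probe sets, beside 9.29% and 10.6% of all, and the 4 that fell were all for beta-tubulin 5. The leading one was at 0.91, 0.71 and 1.3 against 2.23, 2.36 and 2.68 (-1.45 ± 0.29, adjusted p = 0.000564), and did not pass under quantile normalization (-0.81, adjusted p = 0.131).

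Several other genes that were lower in C306 fell from 7 to 14 DAA in Sonalika, and some of them in C306 as well. Chitinase II, which acts on chitin of fungi, read 3.21, 2.66 and 4.94 against 5.61, 7.11 and 6.37 (-2.76 ± 0.46, adjusted p = 6.18e-05) and fell by 3.28 in C306 and by 4.52 in Sonalika. The 14 kDa proline-rich protein DC2.15 read 0.35, 0.44 and 1.42 against 3.25, 5.62 and 5.79 (-4.15 ± 0.46, adjusted p = 1.56e-07). A 60S ribosomal protein L4-1 probe set read 6.04, 5.50 and 6.30 against 7.05, 9.26 and 9.52 (-2.66 ± 0.70, adjusted p = 0.00632). It was 0.0078 under cyclic loess and failed without WH291 replicate 3 (adjusted p = 0.0519). Glyoxalase I, which clears methylglyoxal, was lower by 2.08 ± 0.45 (symbol lgul, adjusted p = 0.00122). Photosynthesis probe sets, 28 of 37 for rbcL, fell in 7 and rose in none, 18.9% called beside 19.9% of all probe sets, with a median of -0.25. Only 3 of these 7 also fell from 7 to 14 DAA in Sonalika, where the other 4 did not change past the test.

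The course of C306 from 7 to 14 DAA divided the 12185 differences into 4 classes. C306 changed in 10456 probe sets over that week (17.1% of all, 6.83% up and 10.3% down). A difference was called ahead where C306 already stood further along its own course, and behind where it stood on the opposite side. It was called not following where the change in C306 did not pass the test and was under 1 log2 unit, and undecided otherwise. The median size of the called 7 DAA differences was 1.00. A change in C306 missed by this rule could thus be as large as the difference itself. There were 1509 probe sets ahead (12.4% of the 12185), 1914 behind (15.7%), 8466 not following (69.5%) and 296 undecided (2.43%). Among those behind, 1470 were higher in C306 and 444 lower. The C306 arrays at 7 DAA stand in both contrasts, with opposite sign, so an error in them moves probe sets into the behind class and no share was read from the relation between the contrasts. The counts depended on single arrays: without C306 replicate 1, 2 or 3 the ahead class fell to 877, 935 and 901, and without replicate 1 or 2 the behind class fell to 1031 and 1064. With array weights, ahead and behind together held most of the calls.

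Sonalika, which shares no array with the comparison, gave a second measure of development. It changed in 16512 probe sets from 7 to 14 DAA (27% of all, 12.3% up and 14.7% down), and by it 3560 of the 12185 were ahead (29.2%), 1547 behind (12.7%), 6889 not following (56.5%) and 189 undecided (1.55%). Of the 8466 that did not follow C306, 2069 were ahead by Sonalika and 483 behind, and 5804 followed neither variety. The prolamins were placed differently by the 2 measures. The median change of the 56 prolamin probe sets from 7 to 14 DAA was 2.34 in C306, where 12 were ahead, 6 not following and 36 undecided, and 7.06 in Sonalika, where 49 were ahead and 5 undecided. LMW-glutenin B3-2 changed by 0.92 in C306 (adjusted p = 0.726) and rose by 4.50 in Sonalika (adjusted p = 0.0118). Its C306 arrays at 14 DAA read 0.66, 0.64 and -0.05. The label not following thus covers genes that were near their 14 DAA level in C306 by 7 DAA.

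**Figure D3:**
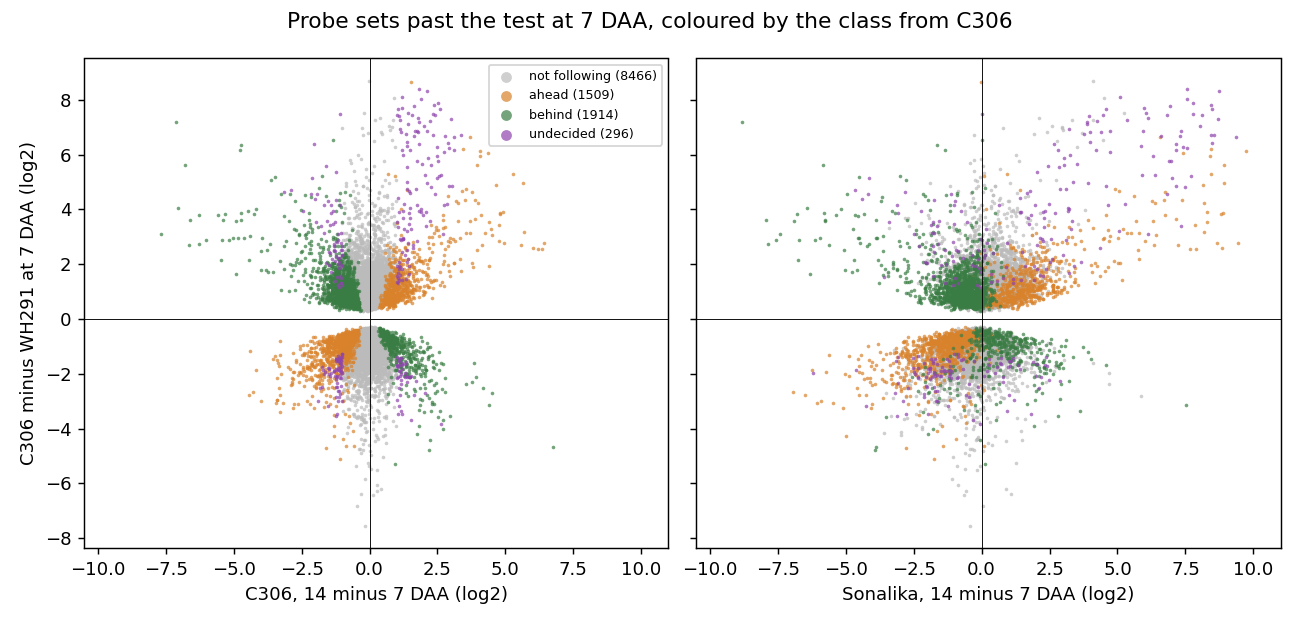
C306 minus WH291 at 7 DAA in log2 units (vertical) for the 12185 probe sets past the test, against the change from 7 to 14 DAA in C306 (left) and in Sonalika (right), with colours for the class from C306. The undecided probe sets near 6 to 8 on the vertical axis lie at 1 to 3 in C306 and reach 8 and beyond in Sonalika, and the left panel shares the C306 arrays at 7 DAA between its axes.

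**Figure D4:**
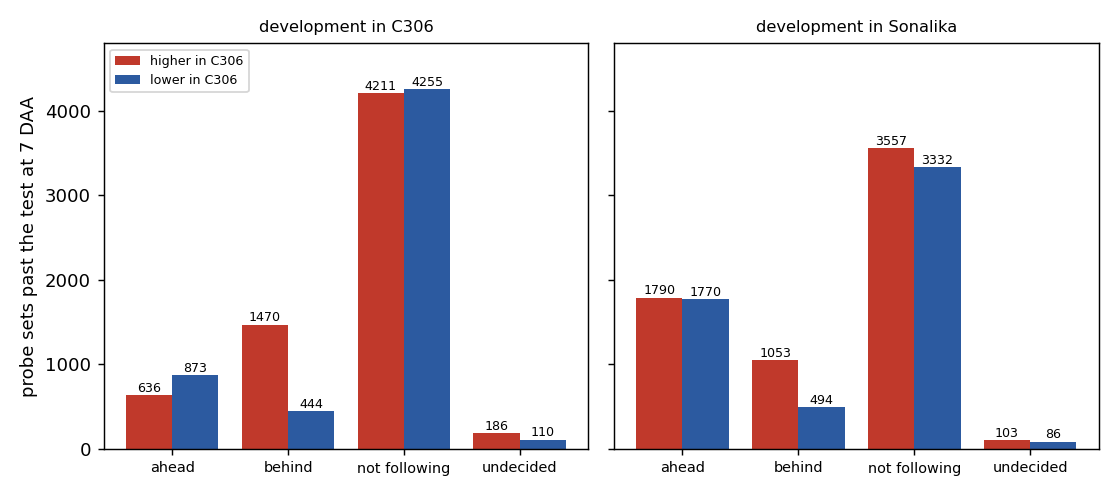
Number of the 12185 probe sets in each class that were higher (red) or lower (blue) in C306, with development taken from C306 (left) or Sonalika (right). Not following is the largest class under both measures, at 8466 and 6889, and ahead grows from 1509 to 3560 with Sonalika.

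A development index was formed from the 1669 probe sets that rose and the 1152 that fell by at least 2 log2 units in Sonalika from 7 to 14 DAA, as the mean of the first minus the mean of the second. It was -4.37, -4.31 and -4.97 on the C306 arrays and -5.42, -5.43 and -5.42 on the WH291 arrays, so that the index was higher on every C306 array. The mean of the rising probe sets did not overlap (-2.09, -2.15 and -2.44 against -2.74, -2.94 and -2.80), whereas that of the falling ones did, at 2.28, 2.16 and 2.53 against 2.68, 2.49 and 2.62 (exact permutation test, two-sided, p = 0.2). A difference between the varieties and a difference in the pace of grain filling cannot be told apart in the 7 DAA arrays alone. The difference was 0.88 (exact permutation test, two-sided, p = 0.1, the smallest that 3 against 3 arrays allow). The Sonalika arrays at 7 DAA, which helped to choose the probe sets, read -5.93, -5.80 and -4.97. Of the 1669 rising probe sets, 20.9% were higher in C306 than in WH291 and 4.91% lower, beside 10.6% and 9.29% of all. Of the 1152 falling ones, 12.5% were higher and 26.2% lower. The 44133 whose change in Sonalika did not pass the test and was under 1 log2 unit had 8.06% higher and 7.55% lower. Differences were thus present there too. C306 replicate 1 at 14 DAA stood apart from its fellows, with an index of -1.79 against 0.48 and 0.65, and without it 1647 probe sets were ahead and 2414 behind.

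Among annotated genes the ahead class was led by WTI, a Bowman-Birk type trypsin inhibitor, at 1.07, 1.13 and -1.09 in C306 against -5.68, -6.29 and -6.81 in WH291 (6.63 ± 0.99, adjusted p = 1.39e-05). It rose by 3.69 more in C306 by 14 DAA. The next 5 were prolamins that were still on their way up in C306: a gamma-gliadin (6.21 ± 1.11), an alpha/beta-gliadin (6.06 ± 1.01), an avenin-like protein (5.60 ± 1.27), another gamma-gliadin (5.31 ± 1.26) and an alpha-gliadin (4.95 ± 1.26). Under quantile normalization the avenin-like protein (2.45, adjusted p = 0.145) and the alpha-gliadin (2.69, adjusted p = 0.131) did not pass. These 5 rose by 3.44 to 5.66 in C306 and by 7.40 to 8.93 in Sonalika. In WH291 they lay between -6.99 and -11.03 on all 3 arrays, so replicate 1 was less apart for them than for LMW-glutenin B3-2. A NAC transcription factor of the NAM kind was also ahead, at -1.3, -1.0 and -3.04 against -3.08, -7.28 and -6.34 (3.78 ± 0.92, adjusted p = 0.00319). Its highest WH291 array lay 0.04 below its lowest C306 array. It did not pass under cyclic loess (adjusted p = 0.156) or quantile normalization (0.321).

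The behind class held genes whose difference ran against the course of C306. Cell wall invertase isoenzyme 4 (beta-fructofuranosidase), which splits sucrose as it is unloaded into the grain, read 5.99, 6.07 and 4.22 in C306 and 1.06, -0.13 and 0.07 in WH291 (5.09 ± 0.88, adjusted p = 0.0001). At 14 DAA its C306 arrays were at 5.24, 0.46 and -0.27, the first being the array that stood apart, and at 28 DAA both varieties were near 0. Sonalika read 1.89, 2.03 and 4.95 at 7 DAA and fell by 2.78. Ent-copalyl diphosphate synthase, which starts gibberellin and other diterpene synthesis, read -2.02, -1.68 and -1.45 against 3.42, 3.45 and 2.32 (-4.78 ± 0.64, adjusted p = 2.96e-06). It rose by 2.18 in C306 but fell by 3.92 in Sonalika, so its class turned with the variety that measured development. The sugar transporter ERD6-like protein 5 was lower in C306 by 3.91 ± 0.54 (adjusted p = 4.7e-06).

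The remaining named genes of this class differed less. An rbcL probe set, for the large subunit of Rubisco, was lower by 2.77 ± 0.58 (adjusted p = 0.000754). The fructan 6-exohydrolase 6-FEH was lower by 2.25 ± 0.67 (adjusted p = 0.0167) and failed without C306 replicate 1 (adjusted p = 0.055), C306 replicate 2 (0.0619), WH291 replicate 2 (0.0553) or WH291 replicate 3 (0.117), and under quantile normalization (0.109) and cyclic loess (0.0889). Elongation factor TEF1 was higher by 0.86 ± 0.16 (adjusted p = 0.000166).

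Most translation genes were higher in C306. Of the 10 probe sets in the translation list 7 rose and none fell, beside 10.6% and 9.29% of all probe sets, with a median of 0.75. By the course of C306, 5 of the 7 were not following and 2, TEF1 among them, were behind. The list medians of 0.38, 0.31 and 0.38 in C306 and -0.38, -0.24 and -0.27 in WH291 did not overlap. The beta subunit of initiation factor eIF2, which brings the first tRNA to the ribosome, read 0.18, 0.42 and -0.20 against -1.74, -1.78 and -2.25 (2.06 ± 0.26, adjusted p = 9.51e-07). The cap-binding protein NCBP differed by 1.68 ± 0.19 (adjusted p = 2.07e-07) and TCTP by 1.17 ± 0.13 (adjusted p = 2.51e-07). For these 3 genes WH291 replicate 1 lay with its fellows. At 28 DAA the differences were -0.06, -0.03 and -0.21, and none passed. NCBP was ahead when development was taken from Sonalika.

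The 2 tubulin probe sets that rose were both for alpha-tubulin, at 3.70 and 0.43 (adjusted p = 0.0333). The first read 0.51, 0.41 and 0.66 in C306 and -3.51, -3.18 and -2.82 in WH291 (3.70 ± 0.33, adjusted p = 4.15e-09), and Sonalika at 0.66, 0.30 and 0.73 lay with C306. Oryzasin-1, an aspartic proteinase, read 1.68, 1.97 and 0.56 against -0.73, -8.20 and -7.71 (6.95 ± 1.18, adjusted p = 7.58e-05). It changed little from 7 to 14 DAA in C306 (-0.27) or Sonalika (0.78), yet had the same uneven WH291 arrays as the prolamins. Nepenthesin-2, of the same enzyme family, read 4.14, 4.26 and 3.48 against -0.08, -0.66 and -0.68 (4.43 ± 0.51, adjusted p = 2.99e-07). The other 2 of the study's 4 protease probe sets were lower in C306. They were nepenthesin-1, also an aspartic proteinase (-2.99 ± 0.57, adjusted p = 0.000274), and an ftsH-like protease (-3.64 ± 0.59, adjusted p = 4.41e-05). Of all probe sets 10.6% were higher and 9.29% lower. GLU1A, a beta-glucosidase, was high on 2 WH291 arrays alone, at 0.53, 3.88 and 4.66 against -0.17, -0.31 and -0.45 in C306 (-3.34 ± 0.53, adjusted p = 3.04e-05), and did not pass in the fit on the 6 arrays alone (adjusted p = 0.0502).

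Differences that lasted to 28 DAA, meaning that they passed the test again in the same direction, were the minority. Of the 12185 probe sets, 1020 (8.37%) also differed at 28 DAA in the same direction and 201 (1.65%) in the opposite one. At that stage 5.51% of all probe sets differed, 2.53% higher and 2.98% lower in C306. The shares lasting in the classes, whose differences were not tested, were 9.28% ahead, 6.27% behind, 8.65% not following and 9.46% undecided. The size of the difference changed between 7 and 28 DAA in 5319 of the 12185 (43.7%), beside 11.5% of all probe sets, and the 7 DAA arrays enter both selections. Among the 5804 that followed neither variety, 505 lasted. A difference could remain and still miss the test at 28 DAA. The 56 prolamin probe sets differed by a median of 3.04 at that stage, with 8 called higher and none lower. Their list median was 0.11, 0.05 and 0.11 on the C306 arrays and -3.93, -1.02 and -3.26 on the WH291 arrays. The change from 7 to 28 DAA passed the test in 7 of the 56. Hybridization controls added to the samples were higher on the C306 arrays than on the WH291 arrays at 28 DAA, with array medians of 0.604 to 1.41 against -0.733 to -0.00904 over 18 probe sets, and their part in the 28 DAA differences was not tested.

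Some lasting differences kept nearly their whole size. S-formylglutathione hydrolase, a formaldehyde detoxifying enzyme, had the largest fall of all, at -7.08, -6.96 and -7.04 in C306 and 0.24, 0.66 and 0.67 in WH291 (-7.55 ± 0.27, adjusted p = 9.38e-18). C306 stayed at a mean of -7.18 at 14 DAA and -6.95 at 28 DAA, and Sonalika at 7 DAA lay with WH291 at 0.65, 0.76 and 0.59. The hypothetical protein F775_05928 differed by -6.83 ± 0.29 at 7 DAA and by -5.84 at 28 DAA. Heat stress transcription factor A-9, known as a seed factor in sunflower, read -2.55, -2.37 and -2.63 against 3.01, 3.19 and 2.75 (-5.49 ± 0.18, adjusted p = 5.35e-18) and differed by -4.75 at 28 DAA. Sonalika again lay with WH291 for that gene.

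For other genes WH291 was high, and C306 and Sonalika were low. Lactoylglutathione lyase read -0.11, -0.14 and 0.02 in C306, -0.05, -0.17 and -0.21 in Sonalika and 5.53, 5.33 and 4.96 in WH291 (-5.35 ± 0.35, adjusted p = 4.61e-12), and the gap was -6.94 at 28 DAA. This probe set is not the glyoxalase I probe set above, although both carry the name of the same enzyme. A probe set with no gene name read -1.84, -1.94 and -1.82 against 5.38, 3.82 and 4.44 (-6.41 ± 0.38), with Sonalika near C306 at -1.48, -1.28 and -1.67.

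Some of these calls rested on uneven arrays at 28 DAA. The chromatin remodeller annotated as CHD4 differed by -5.38 ± 0.56 at 7 DAA, with C306 at 0.26, 0.38 and 0.07 and WH291 at 6.03, 5.41 and 5.41. Its WH291 arrays at 28 DAA read 0.02, 4.15 and 4.21. Peroxisomal acyl-CoA oxidase 1, the first enzyme of fatty acid breakdown, differed by -4.95 ± 0.52, and its WH291 arrays at 28 DAA read -0.31, 3.63 and 3.60. In both, replicate 1 of WH291 at 28 DAA lay at the C306 level.

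Other genes were high in C306 and not in WH291 or Sonalika at 7 DAA. Beside the hypothetical protein F775_43830, which was at a mean of 5.49 in C306 and -0.58 in WH291 at 28 DAA, the serine/threonine kinase-like protein CCR3 read 4.14, 3.97 and 3.47 against 0.19, -0.64 and -0.03 (4.02 ± 0.24, adjusted p = 3.75e-13), with Sonalika between -0.17 and -0.34. Both were classed ahead through small rises in C306 (1.53 and 1.14), while their changes in Sonalika did not pass the test. Peroxidase 66 read 1.47, 0.78 and 2.98 against -1.70, -1.72 and -1.96 (3.54 ± 0.45, adjusted p = 1.65e-06) and differed by 7.22 at 28 DAA.

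**Figure D5:**
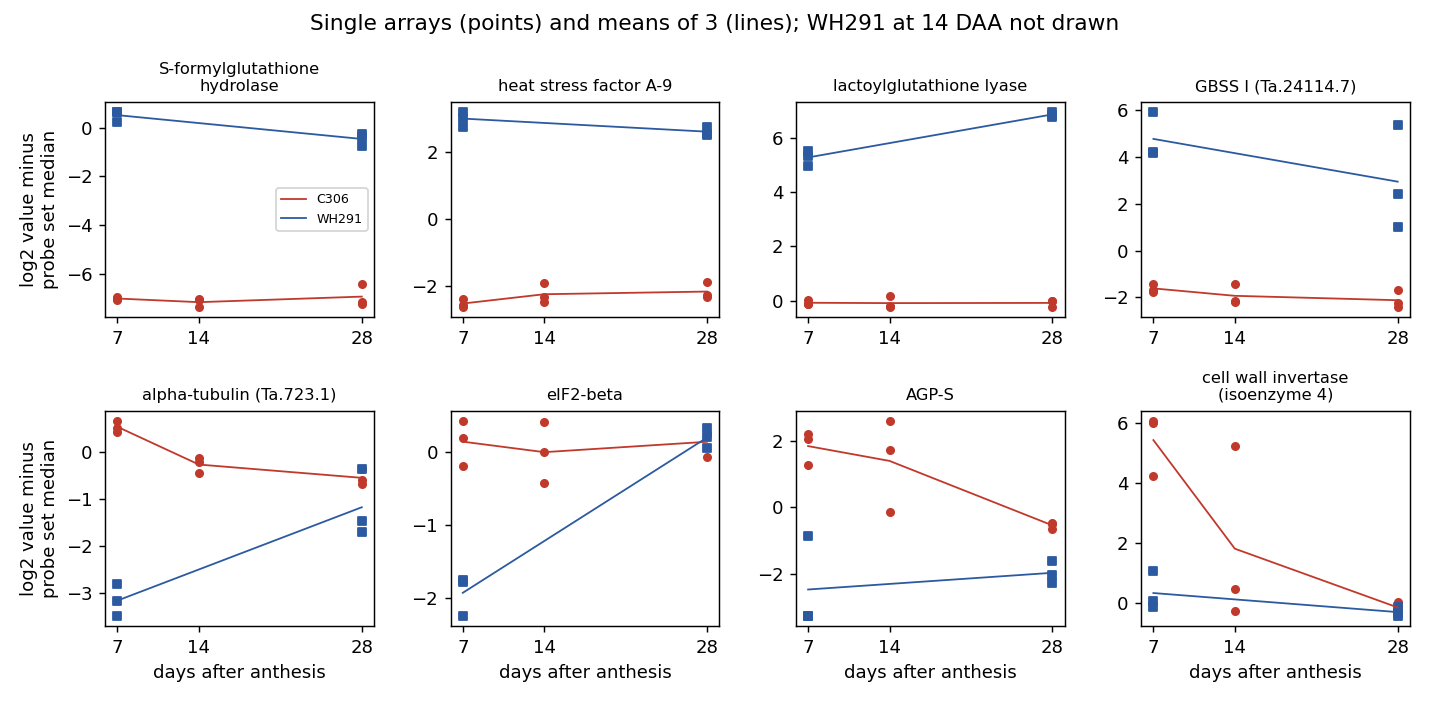
Level of 8 genes at 7, 14 and 28 DAA on single arrays of C306 (red circles) and WH291 (blue squares), in log2 units relative to the probe set's median over 36 arrays, with lines through the means and WH291 at 14 DAA left out. The upper row has a gap at both 7 and 28 DAA, which is wider at 28 DAA for lactoylglutathione lyase. The WH291 arrays of GBSS I are uneven at 28 DAA. Alpha-tubulin, eIF2-beta, AGP-S and the invertase have a smaller gap at 28 DAA.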

How the data were processed

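RNA was hybridized to the Affymetrix wheat genome array. The authors deposited log2 values made by RMA, with each probe set centred on its median over the 36 arrays. Tests used limma 3.58.1 in R 4.3.3 on all 36 arrays, with the 12 groups of variety and stage as coefficients, no filter and Benjamini-Hochberg adjustment over 61179 probe sets. The spread of all groups is shared. Plants were grown in 3 replications per the labels, and p-values measure the spread between these arrays. Genes were named from the study's table of probe sets or from the array annotation (1273 probe sets with a symbol, 1272 of them matched in RefSeq by gene ID). Members, lists and tests were chosen with earlier results of these data known. Genes were named by rule: in the ahead, behind and not following classes the 6 annotated probe sets with the largest difference among those whose arrays do not overlap, 1 for each name, the 3 largest rises and falls, up to 4 called members of each list, and members that account for a count of 5 or fewer. Probe set identifiers are not printed. The fit was tested on simulated data. Alternatives comprised other normalizations, a filter, array weights, a replicate block and leaving out arrays.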

Additional observations from a re-analysis of the deposited data

Results flagged for a closer look

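The difference between C306 and WH291 changed from 7 to 28 DAA (limma interaction, adjusted p under 0.05) for 25 of the 57 probe sets described. That is close to the share among all probe sets called at 7 DAA, 43.7%, beside 11.5% of all probe sets tested. The count therefore does not set the described genes apart from other called probe sets. Most were chosen by their difference at 7 DAA, and the 7 DAA arrays also enter the change, so shrinking gaps are partly favoured by the choice. The change given is the difference at 28 DAA minus that at 7 DAA, in log2 units. The spike-in controls differ between the varieties at 28 DAA, as given above.

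A rise of C306 over WH291 at 7 DAA shrank for the invertase (-4.94), oleosin (-4.94), LMW-glutenin B3-2 (-5.89), nepenthesin-2 (-4.40), alpha-tubulin (-3.07), AGP-S (-2.89), F775_43830 (-2.59), AGA.1 (-2.21), eIF2-beta (-2.12), NCBP (-1.71), TCTP (-1.38) and TEF1 (-0.77).

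A deficit of C306 shrank or turned for ent-copalyl diphosphate synthase (5.88), the rbcL probe set (4.17), the proline-rich protein (4.02), GLU1A (3.32), chitinase II (3.02), the ERD6-like transporter (2.62), acyl-CoA oxidase 1 (2.54), the probe set with no gene name (2.46), lgul (1.95) and beta-tubulin 5 (1.58).

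Gaps that widened were those of peroxidase 66 (3.68), CCR3 (1.28) and lactoylglutathione lyase (-1.59). For acyl-CoA oxidase 1 the change rested partly on replicate 1 of WH291 at 28 DAA.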

How the results depend on the processing

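Of the 57 probe sets described, 43 kept their direction and call under every alternative run, and 51 kept it when each of the 6 arrays was left out in turn. Replicate numbers did not pair the arrays: deviations of same-numbered C306 and WH291 arrays correlated at 0.174, -0.247 and 0.298, and not every array correlated best with its own number. With the replicate block 12126 probe sets passed, 11889 of them in common with the 12185, and no class, list median or described gene changed its call. The number of arrays, 3 in each group, limits the precision.

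Quantile normalization sets equal the spread of the centred values, whose standard deviation ranged from 0.458 to 1.11 between arrays. It left 5582 probe sets (3481 higher, 2101 lower, 2836 at least 2-fold, 149 at least 10-fold), with 550 ahead, 1030 behind, 3856 not following and 146 undecided, and 62.4% of calls higher in C306 in place of 53.4%. List medians under it were 3.30 for all prolamins, 3.26 alpha-gliadins, 2.92 gamma-gliadins, 3.82 LMW and 2.06 HMW glutenins, 4.11 avenin-like proteins, 1.73 globulins, 2.92 puroindolines and grain softness, 3.53 amylase inhibitors, 3.42 thionins, 3.75 beta-amylases, 2.00 peroxidases, 2.75 annotated storage proteins, 1.70 starch synthesis, -0.84 embryo and desiccation, 0.11 histones, -0.23 tubulins, 0.072 sugar and glycolysis and -1.23 lipid transfer and defence. Cyclic loess gave -1.74 for histones, -0.84 tubulins, 1.08 starch synthesis, 0.83 translation, 2.11 globulins, 0.20 transcription regulators and 0.0078 for ribosomal protein L4-1, which thereby reversed. The methods' filter gave 3.17 for serpins and inhibitors. Array weights gave 17087 calls, 8584 of them lower in C306, with 4502 ahead, 5238 behind and 43 undecided. Ahead and behind together then held most calls, whereas not following held 69.5% in the main fit. The C306 arrays at 14 DAA had weights of 0.37, 8.5 and 0.472, so the weighted course of C306 rested mostly on replicate 2 of that stage.

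With development taken from Sonalika 3560 were ahead and 189 undecided, and without Sonalika replicate 3 at 7 DAA, an alternative chosen after seeing the data, 3879 ahead and 1144 behind. With C306 at 28 minus 7 DAA there were 2471 ahead, 3080 behind and 187 undecided. Size limits of 0.5 and 2 gave 1759 and 47 undecided. The fit without C306 replicate 1 at 14 DAA, also chosen after seeing the data, gave 1647 ahead and 2414 behind.

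Leaving out each of the 6 arrays gave 8451 to 12589 probe sets, 3548 to 6176 of them lower in C306 (lowest without C306 replicate 2, and 3572 without WH291 replicate 2), 877 to 1635 ahead, 1031 to 2169 behind and 184 (without WH291 replicate 2) to 452 (without C306 replicate 3) undecided. List medians ranged from -0.39 to 0.061 for lipid transfer and defence, -0.038 to 0.036 for sugar and glycolysis (-0.046 without C306 replicate 1 at 14 DAA), 0.71 to 0.85 for translation, -0.39 to -0.16 for photosynthesis and -1.30 to -0.33 for redox genes, the last value at -1.30 without WH291 replicate 1. The index difference was 0.76 to 1.09, and 749 to 942 probe sets lasted to 28 DAA when each array of that stage was left out.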
